A study of Arabidopsis thaliana with 12 samples.

Results

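The response of Arabidopsis roots overexpressing *CRR* to low phosphate (Pi) was read as the difference of CRR OE –Pi from CRR OE +Pi, which are 6 of the 12 RNA-seq libraries of the series. Members were chosen by label alone, as the 3 CRR OE –Pi and the 3 CRR OE +Pi libraries, and all 19802 genes of the expression table were compared. Both groups carry the same transgene, a *CRR-GFP* fusion driven by the CaMV *35S* promoter in the Col-0 background, so the fusion is made in most cell types and not only where *CRR* itself is active. *CRR* (AT3G25290) encodes a protein with a cytochrome b561 and a DOMON domain. Seedlings of a single overexpression line were grown for 7 days on agar plates of dilute Murashige and Skoog medium, either with 1 mM Pi (+Pi) or with no Pi added (–Pi), and each library was made from roots pooled from many seedlings. The other 6 libraries are wild-type Col-0 roots under the same 2 treatments, 3 per group, and they serve here only for comparison.

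Each gene has 1 value per group, the authors' mean over 3 libraries of log2 CPM, where CPM is a gene's count scaled to a common library size. No value per library was read, so no spread between libraries could be given and none of the differences below was tested. A difference is the –Pi mean minus the +Pi mean on the log2 CPM scale, and a gene is called higher or lower where it reaches 1 in size, a 2-fold difference. As a rough measure of how far 2 group means lie apart without any Pi treatment, CRR OE +Pi was set against Col-0 +Pi, a difference that holds both library spread and any effect of the transgene. Among the 9256 genes with a mean level of 2 to 5 log2 CPM over the 4 groups, 95% differed between the lines in +Pi by under 0.28, and among the 800 genes below 0 log2 CPM by under 0.97. Differences of low genes are thus far less certain than those of well expressed genes. The gene lists used below were chosen with earlier results of these data known, so their counts describe the data and test nothing.

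Plants take up phosphorus as Pi, and roots short of it switch on a common set of genes. The transcription factor PHR1 and its relatives bind a short DNA sequence called P1BS, and SPX proteins hold them back while Pi is plentiful. The genes they turn on encode Pi transporters, secreted phosphatases, enzymes that replace phospholipids by galactolipids and sulfolipids, and non-coding RNAs that titrate the microRNA miR399. In Arabidopsis, low Pi also shifts iron handling in the root, and iron deposited in the root tip is part of the signal that halts primary root growth.

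*CRR* itself was at nearly the same level under both treatments in the overexpression line. Its mean was 12.70 log2 CPM in CRR OE +Pi and 12.72 in CRR OE –Pi, while Col-0 had 5.96 in +Pi and 5.95 in –Pi. Reads of the transgene and of the native gene are counted together. The 8 root tissue markers, among them *WER*, *SCR*, *SHR*, *CASP1* and *PHO1*, lay between -0.13 and 0.92, with a median of 0.01. They summed to 685 CPM in CRR OE +Pi and 713 CPM in CRR OE –Pi. *PHO1*, the highest of them at 8.80 and 8.79 log2 CPM, weighs most in both sums, so they say little about the others. The 8 shoot markers in the table summed to 38.1 and 39.0 CPM. Single shoot markers did differ: 3 of the 8 were higher and 1 was lower in CRR OE –Pi, between -1.47 and 1.75, and in Col-0 0 were higher and 1 lower. The 3 higher ones, *RBCS1B*, *RBCS2B* and *RBCS3B*, were below 0 log2 CPM in all 4 groups, and *LHCB2.1*, the lower one, had 1.32 and -0.15 in CRR OE. The 8 reference genes, including *ACT2*, *UBQ10* and *PP2AA3*, lay between -0.10 and 0.09.

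In CRR OE roots 630 genes (3.18% of 19802) were higher in –Pi and 169 genes (0.853%) were lower. The response was lopsided in size as well as in number. A difference of at least 2 was met by 234 higher and 24 lower genes, and one of at least 4 by 56 higher and 1 lower gene. The higher genes started low, with a median of 1.24 log2 CPM in +Pi and 3.20 in –Pi, and they held 0.872% of the summed CPM in +Pi and 3.06% in –Pi. Most genes differed little: 89.0% of all genes differed by under 0.5 and the median difference was -0.01. Both counts rest in part on low levels. Among genes of at least 1 CPM in both groups 403 were higher and 93 lower. With 1 CPM added to each group mean before the logarithm 72 were lower, and with 5 CPM added 243 were higher.

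**Figure D1:**
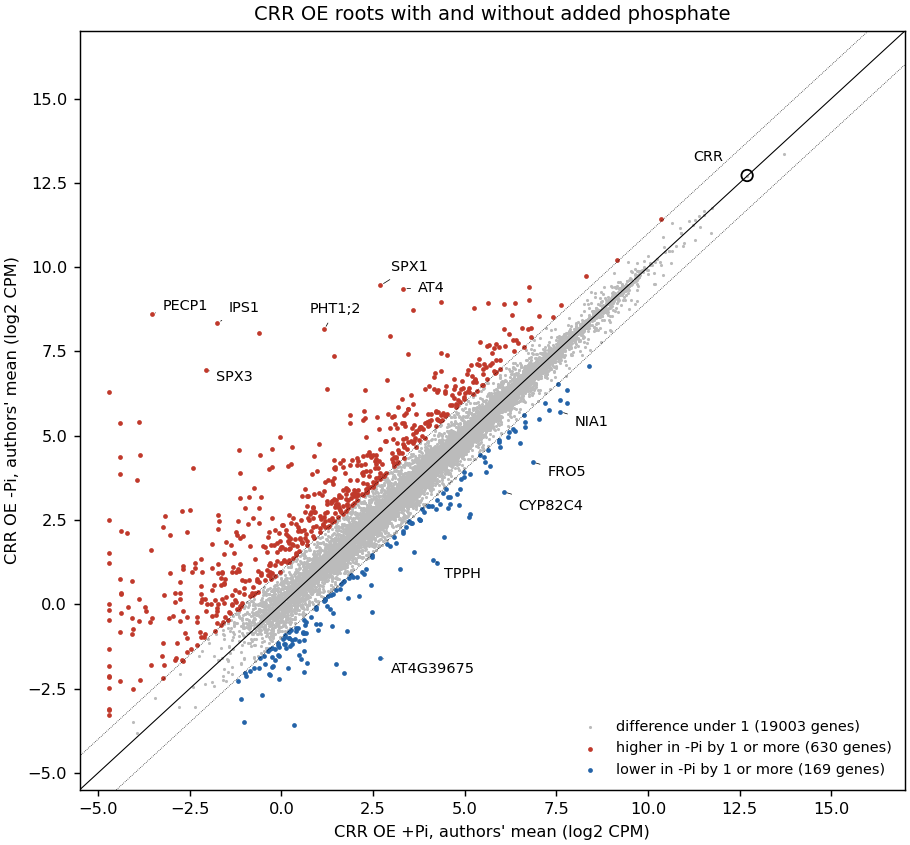
Mean level of each of 19802 genes in CRR OE +Pi (horizontal axis, log2 CPM) and CRR OE –Pi (vertical axis, log2 CPM), 1 point per gene, with the solid line at equality and dotted lines at a difference of 1. Red points are the 630 higher genes, blue points the 169 lower genes, and *CRR* (circled) lies on the line of equality at 12.7 log2 CPM.

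The strongest responders carried the P1BS sequence near their start far more often than other genes, so their upstream sequences are shown first. P1BS was searched as GNATATNC, which reads the same on both strands, in the 300 bases before the annotated gene start. It was found before 6.60% of the 19785 nuclear genes. Of the 56 genes higher by 4 or more in CRR OE –Pi, 39.3% had it. The windows of 4 such genes are printed 5′ to 3′ in the direction of the gene, from the TAIR10.1 assembly, with each P1BS match in capitals and the base next to the gene start last. None of these windows overlaps another annotated gene.
SPX3, chr2:18606110-18606409, plus strand: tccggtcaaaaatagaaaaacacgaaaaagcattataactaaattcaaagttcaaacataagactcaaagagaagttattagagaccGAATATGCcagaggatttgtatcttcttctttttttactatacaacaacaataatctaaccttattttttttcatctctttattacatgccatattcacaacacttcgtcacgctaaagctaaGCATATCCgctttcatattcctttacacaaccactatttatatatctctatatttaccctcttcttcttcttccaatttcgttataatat
PHT1;2, chr5:17415398-17415697, plus strand: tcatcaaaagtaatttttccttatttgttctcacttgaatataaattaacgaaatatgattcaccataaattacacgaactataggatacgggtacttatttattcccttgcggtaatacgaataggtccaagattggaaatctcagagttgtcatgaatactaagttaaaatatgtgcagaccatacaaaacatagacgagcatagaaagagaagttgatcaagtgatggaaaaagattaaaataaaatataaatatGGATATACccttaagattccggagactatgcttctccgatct
AT4, chr5:894282-894581, plus strand: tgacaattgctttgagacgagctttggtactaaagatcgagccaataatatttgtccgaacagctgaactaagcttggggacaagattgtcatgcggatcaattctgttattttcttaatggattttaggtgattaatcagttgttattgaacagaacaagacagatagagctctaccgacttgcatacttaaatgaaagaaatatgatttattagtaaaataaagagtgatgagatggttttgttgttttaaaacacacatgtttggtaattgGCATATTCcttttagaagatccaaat
GDPD1, chr3:350011-350310, minus strand: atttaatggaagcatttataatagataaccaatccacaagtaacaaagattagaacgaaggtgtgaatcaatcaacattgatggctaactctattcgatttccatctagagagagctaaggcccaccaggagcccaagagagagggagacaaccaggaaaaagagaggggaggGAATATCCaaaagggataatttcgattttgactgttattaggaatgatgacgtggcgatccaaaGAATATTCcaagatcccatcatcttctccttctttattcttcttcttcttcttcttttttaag

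*SPX3* and *GDPD1* each held 2 matches, beginning 213 and 90 bases before the gene start in *SPX3* and 127 and 63 bases before it in *GDPD1*. *PHT1;2* had a match beginning 42 bases before its start, and *AT4* one 26 bases before. The share of genes with a match grew with the size of the difference: 12.4% of genes higher by 0.5 to 1, 12.5% at 1 to 2, 19.1% at 2 to 4 and 39.3% at 4 or more. Genes lower in –Pi did not stand out, with 7.10% of the 169 lower genes and 5.38% of those lower by 0.5 to 1. In a window of 1000 bases the motif was found before 20.5% of all nuclear genes, 64.3% of the genes higher by 4 or more and 17.8% of the lower genes. Read the other way, 2.82% of the 18479 genes with no match in 300 bases were higher in CRR OE –Pi, against 7.53% of 1235 genes with 1 match and 16.9% of 71 genes with 2 or more. Most genes that carry the letters therefore did not reach the threshold. A match is a run of letters and not a measured binding site.

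**Figure D2:**
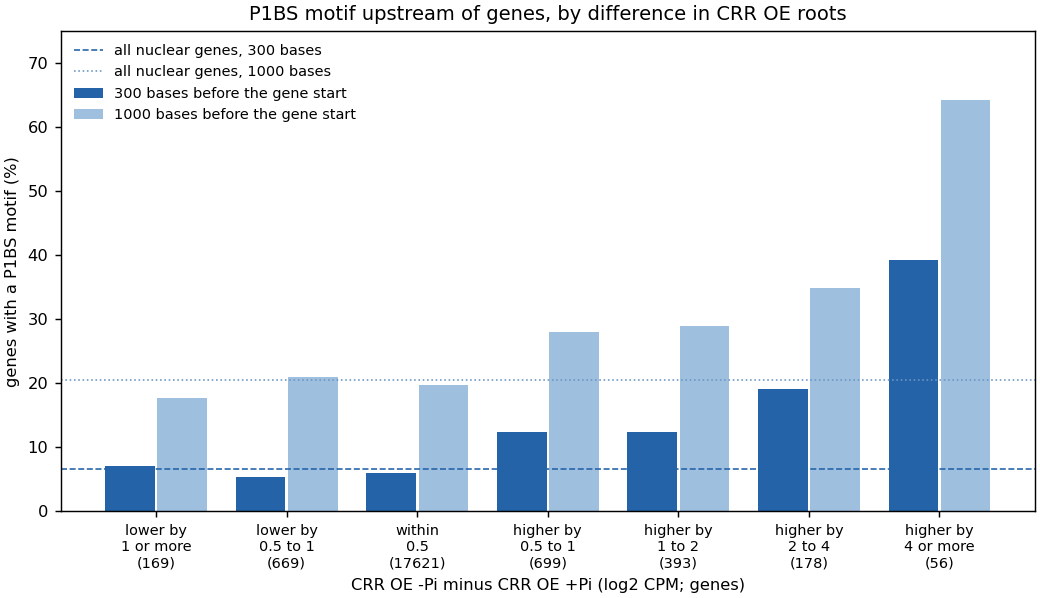
Percentage of nuclear genes with the P1BS motif in the 300 (dark bars) or 1000 bases (light bars) before the gene start, by the difference of CRR OE –Pi from CRR OE +Pi, with gene numbers in parentheses. Horizontal lines mark the shares over all 19785 nuclear genes, 6.60% and 20.5%, and the bars reach 39.3% and 64.3% for genes higher by 4 or more.

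Among genes of at least 1 CPM in both CRR OE groups, *PHT1;2* had the greatest difference. This plasma membrane Pi transporter had a mean of 1.17 log2 CPM in +Pi and 8.15 in –Pi, a 126-fold difference, and 1.08 and 8.32 in Col-0. *PHT1;1*, the main Pi uptake transporter of well fed roots, was already at 8.32 in CRR OE +Pi and reached 9.75, a difference of 1.43. *PHT1;4*, its partner in root Pi uptake, stood at 6.08 and 8.90. All 8 measured members of the 9 listed *PHT1* genes were higher in –Pi, with a median difference of 4.81, while the median of all genes was -0.01. *PHT1;5*, *PHT1;8* and *PHT1;9* went from -2.49, -4.40 and -0.25 log2 CPM to 2.80, 3.87 and 4.08. *PHT1;3* and *PHT1;7* had -4.71, the lowest value the table holds, in CRR OE +Pi and at -0.47 and 2.49 in –Pi, so no fold is given. The list median was 2.78 with 1 CPM added to each group mean and 2.83 among genes of at least 1 CPM in both groups. *PHT1;1*, *PHT1;2* and *PHT1;3* lie side by side and are close copies, so reads may be split among them and their single values are uncertain.

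The Pi sensors and the non-coding RNAs of the pathway differed strongly, and the transcription factors hardly at all. *SPX1*, which encodes an inhibitor of PHR1, had 2.70 log2 CPM in CRR OE +Pi and 9.46 in –Pi, a 108-fold difference. *SPX3* had -2.07 and 6.95, a difference of 9.02. *SPX2* differed by 2.06, and *SPX4* by -0.13. *PHR1* had 5.82 in +Pi and 5.76 in –Pi, and its homologue *PHL1* 4.86 and 4.71. *PHF1*, which helps Pi transporters leave the endoplasmic reticulum, was higher by 1.87. *PHO1*, the exporter that loads Pi into the xylem, was level at 8.80 and 8.79, and its homologue *PHO1;H1* was just under the threshold at 0.98. AT1G63010, an SPX domain protein of the major facilitator family, differed by 0.57. In this list 6 of 14 measured genes were higher and 0 lower, against 3.18% and 0.853% of all genes. The list median was 0.78, or 0.28 among genes of at least 1 CPM in both groups.

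miR399 lowers the mRNA of *PHO2*, a ubiquitin-conjugating enzyme that marks Pi exporters and transporters for breakdown, and *IPS1* and *AT4* bind miR399 without being cut. The miR399 genes were not in the table, so the sequences of miR399a, of both mimics and of 1 of the 5 sites in *PHO2* are given to show what the measured transcripts share. They were read from TAIR10.1 at RefSeq positions and are written as DNA. Capitals mark the seed (bases 2 to 8) in miR399a and, in the mimics, the 3 inserted letters that face no base of miR399. Outside the insert the mimics are not matched at every letter. Their nearest form is miR399b, not printed here, which each matches at 18 of 21 letters.
miR399a, chr1:10227165-10227185: tGCCAAAGgagatttgccctg
IPS1, chr3:3051224-3051247: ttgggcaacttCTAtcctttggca
AT4, chr5:895149-895172: ttgggcaacttCGAtcctttggca
PHO2, chr2:14281884-14281904, minus strand: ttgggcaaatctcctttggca

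The seed of miR399a is shared by 6 annotated miR399 arms. The *IPS1* and *AT4* sites are identical in 23 of 24 letters, and both overlap a coding sequence that RefSeq annotates in these transcripts. All 5 *PHO2* sites lie in exons of its 5′ UTR. *IPS1* had -1.74 log2 CPM in CRR OE +Pi and 8.35 in –Pi, a difference of 10.09, and Col-0 had -1.57 and 8.53. *AT4* had 3.33 and 9.37, a 65.8-fold difference. The target lay on the other side of 0: *PHO2* had 8.72 in +Pi and 7.77 in –Pi, a difference of -0.95 that did not reach the threshold, and its difference in Col-0 was -0.66. *NLA*, a ubiquitin ligase that also removes Pi transporters, differed by -0.40.

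Genes that replace phospholipids by lipids without phosphorus formed the broadest block of higher genes. Of 19 measured lipid remodelling genes 15 were higher and 0 lower, against 3.18% and 0.853% of all genes. All 19 had a positive difference, as had 9135 of all 19802 genes, and the list median was 3.11. *PECP1* (AT1G17710, PEPC1 in RefSeq), which releases Pi from phosphocholine and phosphoethanolamine, had -3.53 log2 CPM in CRR OE +Pi and 8.62 in –Pi. Its difference of 12.16 was the largest of the table, but the +Pi level is so low that its size depends on the constant added before the logarithm. Its relative *PS2* had 3.58 and 8.74, a 35.7-fold difference. For the galactolipid synthases, *MGD3* had 1.24 and 6.40 and *MGD2* 1.87 and 5.38, whereas *MGD1*, which makes the galactolipid of chloroplasts at all times, differed by 0.42. *DGD2* was higher by 1.18 and *DGD1* by 0.96. The sulfolipid genes *SQD1*, *SQD2* and *UGP3* were higher by 3.11, 3.31 and 2.45.

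The enzymes that break phospholipids down were also higher in most cases. *PLDZ2*, a phospholipase D, had 2.28 log2 CPM in CRR OE +Pi and 6.35 in –Pi, a 16.7-fold difference, while *PLDZ1* differed by 0.04. *NPC4*, a phospholipase C, had 3.45 and 7.44. *GDPD1*, which cleaves glycerophosphodiesters, had 4.34 and 8.96, a 24.5-fold difference, and *GDPD2*, *GDPD3* and *GDPD6* were higher by 1.56, 3.06 and 3.42. *GDPD3* and *GDPD6* were low in +Pi, at -1.58 and -2.45 log2 CPM, so the size of their differences is uncertain. In the *PLDZ* pair 1 gene was thus higher in –Pi while its paralogue was at nearly the same level in both treatments. Annotated neighbours overlap *PLDZ2*, *GDPD1*, *PAP17* and other listed genes, among them *UGP3*, *GDPD6*, *PAP1*, *PAP10*, *PAP24* and *PPCK1*. Reads in the shared part may be assigned to either gene.

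Secreted and intracellular phosphatases were higher as a group, again with exceptions. Of 13 measured phosphatase and nuclease genes 9 were higher and 0 lower, against 3.18% and 0.853% of all genes. The list median was 1.81, or 1.45 without the 2 genes at the table's minimum in +Pi. *PAP17*, a purple acid phosphatase, had 2.97 log2 CPM in CRR OE +Pi and 7.97 in –Pi, a 32.0-fold difference. *PAP12* and *PAP10*, which act at or outside the root surface, were higher by 1.81 and 1.01, and *PAP1*, *PAP22* and *PAP24* by 2.09, 2.45 and 2.49. *PAP26*, the main vacuolar phosphatase, was level at 8.76 and 8.66. *PAP14* and *PAP23* were at -4.71 in +Pi and reached 1.21 and 1.51. *RNS1*, a ribonuclease that frees Pi from RNA, had 1.54 and 2.99 in CRR OE and 1.12 and 3.88 in Col-0. *ENDO2*, an endonuclease, was the member furthest apart between the lines, with -2.07 and -2.36 in CRR OE against -2.04 and 1.16 in Col-0. Whether the lines differ in this gene was not tested.

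Carbon metabolism that spares or recycles Pi was also higher. Of 10 genes 7 were higher, against 3.18% of all genes, with a median of 1.47. The glycerol-3-phosphate transporter homologues *G3PP1*, *G3PP2* and *G3PP3* were higher by 3.55, 3.26 and 4.84, while *G3PP4* and *G3PP5* differed by 0.38 and -0.12. The phosphoenolpyruvate carboxylase genes *PPC1* and *PPC2* were higher by 1.06 and 1.46 and *PPC3* differed by 0.70. *PPCK1* and *PPCK2*, whose kinases activate that carboxylase, were higher by 1.70 and 1.48.

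**Figure D3:**
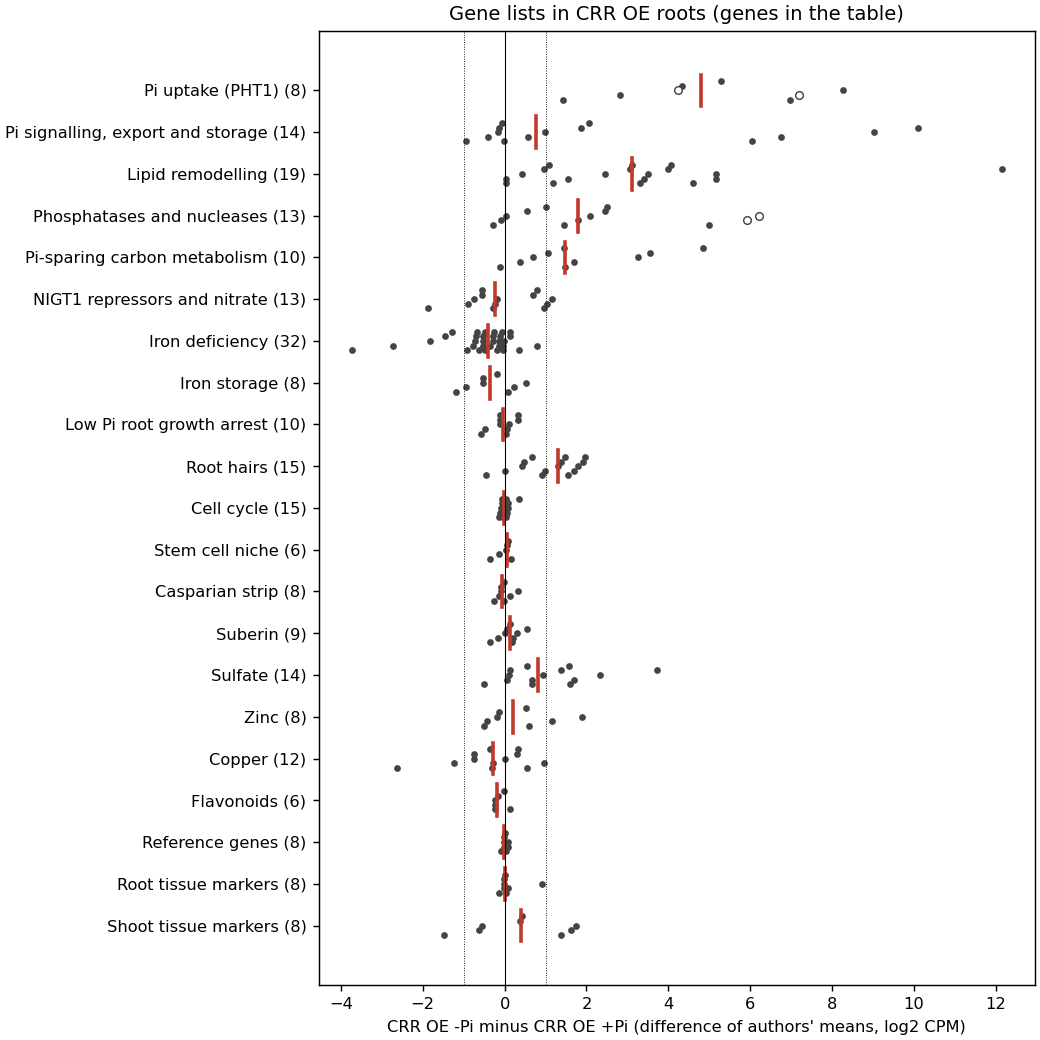
CRR OE –Pi mean minus CRR OE +Pi mean (log2 CPM, horizontal axis) for the genes of 21 lists, 1 point per gene with the number measured in parentheses. Red bars are list medians, open circles are genes whose CRR OE +Pi mean is the table's minimum, and dotted lines mark a difference of 1 in either direction. The *PHT1* genes lie wholly to the right of 1 and the cell cycle genes between -0.12 and 0.34.

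Among the lists outside Pi metabolism, the root hair list held the most higher genes. Of 15 listed genes 8 were higher and 0 lower, against 3.18% and 0.853% of all genes, with a median of 1.29. *RSL2*, a bHLH transcription factor of root hair growth, had 3.92 log2 CPM in CRR OE +Pi and 5.39 in –Pi. *RSL4*, another such factor, was at 3.06 in both CRR OE groups and at 3.20 and 3.73 in Col-0. *RHD6*, which acts before both, differed by 0.47, and AT2G14760, a further bHLH factor, was higher by 1.92. Several genes for walls and growth of the hair were higher: *LRX1* was higher by 1.98, *EXPA18* by 1.70, *COW1* by 1.55, *EXPA7* by 1.37 and *PRP1* by 1.29. *PRP3* had 5.80 log2 CPM in +Pi and 7.61 in –Pi. *RBOHC*, the oxidase that produces reactive oxygen at the hair tip, differed by 0.66.

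Wall protein families, grouped by their description in the table after their values were seen, included further higher genes. Over all genes 3.18% were higher and 0.853% lower. Of 30 genes described as extensins or extensin-like, structural proteins of the cell wall, 13 were higher and 0 lower, with a median of 0.70. *EXT2* had 4.52 log2 CPM in +Pi and 7.40 in –Pi, *EXT10* 4.19 and 6.87, and *EXT6* 4.36 and 6.93. The xyloglucan endotransglucosylases, which cut and rejoin wall glucans, were higher in 4 of 26 cases, among them *XTH26* (-1.13 and 3.89) and *XTH14* (6.07 and 8.18). Of 57 class III peroxidases 6 were higher and 1 lower, the latter near the share over all genes. *PER73* was higher by 2.58, and *PER25* was lower by 1.67 in CRR OE, having 4.54 and 2.86, whereas it had 3.87 and 4.12 in Col-0.

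None of 15 cell cycle genes, 6 stem cell niche genes, 8 Casparian strip genes or 9 suberin genes was called in CRR OE. With 3.18% of all genes higher and 0.853% lower, lists of this size hold few or no called genes, so the absence of calls says little about them and their values are given instead. The mitotic cyclin *CYCB1;1* had 4.43 log2 CPM in +Pi and 4.32 in –Pi, and *CDKB2;2*, a mitotic kinase, differed most at 0.34. *PLT1* and *PLT2*, transcription factors that keep the meristem going, differed by 0.08 and 0.15 in CRR OE and by 0.39 and 0.39 in Col-0. *WOX5*, expressed in the quiescent centre, had 0.60 and 0.25 in CRR OE and 0.74 and 1.01 in Col-0. Whole roots hold few such cells, and fewer cells of a type cannot be told apart from less RNA per cell.

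The 10 genes known from the low Pi root growth arrest were also uncalled in both lines, which at those shares is near the background. *LPR1* and *LPR2*, ferroxidases of the apoplast, each differed by -0.11 in CRR OE and by 0.16 in Col-0, and *PDR2*, which restrains them, by 0.12. *STOP1*, a transcription factor, differed by -0.12, and its target *ALMT1*, a malate channel, had 5.58 log2 CPM in CRR OE +Pi and 5.10 in –Pi, against 5.61 and 5.55 in Col-0. *CLE14*, a peptide gene, differed by -0.57 at a level of 1.57 and 1.00. Within the level class of 0 to 2 log2 CPM, 95% of genes differed between the lines in +Pi by under 0.52.

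Iron deficiency genes mostly lay below their +Pi level. Of 32 measured genes of this list 28 had a negative difference in CRR OE, as had 10667 of all 19802 genes. By at least 1, 5 were lower and 0 higher, against 0.853% and 3.18% of all genes. The list median was -0.42. In Col-0 7 were lower and 1 was higher, against 2% and 3.96% of all genes, with a median of -0.17. *IRT1*, the main root importer of ferrous iron, had 7.80 log2 CPM in CRR OE +Pi and 6.35 in –Pi, a difference of -1.45, and 7.31 and 5.10 in Col-0. *FRO2*, the reductase that supplies it, had 6.84 and 6.21 in CRR OE against 6.38 and 4.88 in Col-0. *FIT*, the bHLH factor above both, had 6.40 and 5.49, a difference of -0.91 in CRR OE and -0.52 in Col-0. So the factor showed the greater difference in CRR OE and both of its targets the greater difference in Col-0.

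Both the coumarin and the nicotianamine branch of iron handling held 2 lower genes in CRR OE. *CYP82C4*, which makes the catechol coumarin sideretin, had 6.06 log2 CPM in CRR OE +Pi and 3.34 in –Pi, and 5.52 and 2.00 in Col-0. AT3G12900, a 2-oxoglutarate and iron dependent oxygenase, had 1.71 and -2.03 in CRR OE and 1.51 and -3.86 in Col-0. *F6'H1*, the entry enzyme of coumarin synthesis, was level at 7.30 and 7.30, and *PDR9*, the coumarin exporter, at 9.13 and 9.09. Nicotianamine chelates iron inside the plant. *NAS1* had 7.80 and 5.98 in CRR OE, a difference of -1.82, and -1.18 in Col-0. *NAS2* had 5.96 and 4.68 in CRR OE but 5.67 and 5.85 in Col-0, and *NAS4* 3.96 and 3.19 in CRR OE but 3.64 and 3.84 in Col-0. These 3 nicotianamine synthase genes of the iron deficiency list thus had a negative difference in CRR OE. Of them *NAS1* alone had one in Col-0. *NAS3*, listed with the iron storage genes, is not among them.

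The regulators of iron uptake varied less. *BHLH38* and *BHLH39* differed by -0.18 and -0.27 in CRR OE, and *BHLH100* and *BHLH101* by -0.53 and -0.54 in CRR OE against -2.20 and -1.23 in Col-0, at levels under 2 log2 CPM. *BTS*, a ligase that curbs the iron response, differed by -0.07, *BTSL1* by -0.67 and *MYB10* by -0.71. *IRT2*, which lies next to *IRT1*, went the other way, with 2.49 log2 CPM in CRR OE +Pi and 3.29 in –Pi. Of 8 measured iron storage genes 1 was lower and 0 higher, against 0.853% and 3.18% of all genes. The list median was -0.36, with 3 positive and 5 negative differences. The lower gene, AT1G21140 (VTL1 in RefSeq), a vacuolar iron transporter homologue, had 4.91 and 3.73. Its relative AT3G25190 (VTL5) had 7.32 and 6.38, and the ferritin gene *FER1* 7.91 and 7.39.

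**Figure D4:**
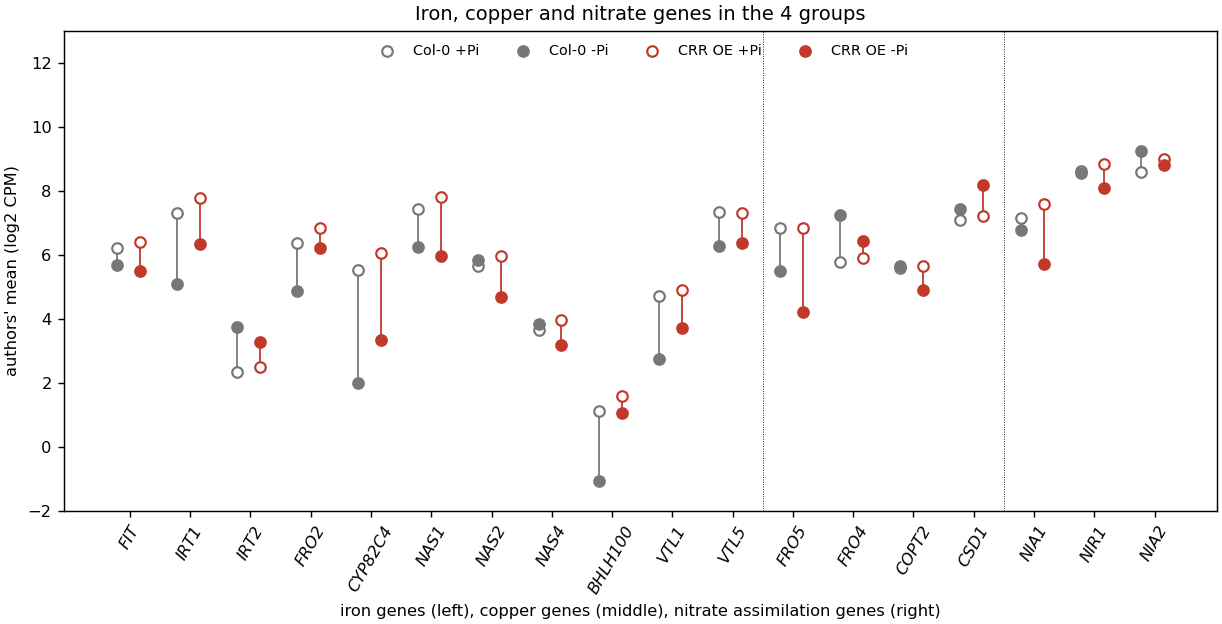
Authors' means (log2 CPM, vertical axis) of 18 iron, copper and nitrate genes in Col-0 (grey) and CRR OE (red), with open circles for +Pi and filled circles for –Pi, and a line joining the treatments of a line. The genes were chosen after their values were seen. *IRT1* and *CYP82C4* reach lower in Col-0 –Pi, and *NAS2*, *FRO5* and *NIA1* reach lower in CRR OE –Pi.

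Among the copper genes, the neighbouring paralogues *FRO5* and *FRO4* lay on opposite sides of 0. *FRO5*, which encodes a copper reductase of the root surface, had 6.85 log2 CPM in CRR OE +Pi and 4.22 in –Pi, and 6.85 and 5.49 in Col-0. *FRO4*, the gene beside it with the same function, had 5.91 and 6.45 in CRR OE and 5.77 and 7.24 in Col-0. They are similar in sequence, so reads may be assigned to the wrong one. Of 12 copper genes 2 were lower, *FRO5* and the low *COPT6*, and 0 higher. Over all genes 0.853% were lower and 3.18% higher. *COPT2*, a copper importer, differed by -0.76 and *FSD1*, the iron superoxide dismutase, by -0.74, while the copper enzyme *CSD1* had 7.22 and 8.19, a difference of 0.96. *COPT2* and *FSD1* differed by 0.06 and -0.31 in Col-0, and *CSD1* by 0.34. *SPL7*, the transcription factor of the copper deficiency response, was at 6.35 in both CRR OE groups.

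Of 13 nitrate and NIGT1 genes 2 were higher and 1 was lower in CRR OE, against 3.18% and 0.853% of all genes. The list median was -0.24, with 5 positive and 8 negative differences. The lower gene, *NIA1*, encodes a nitrate reductase and had 7.60 log2 CPM in CRR OE +Pi and 5.72 in –Pi, a difference of -1.88, while Col-0 had 7.15 and 6.78. *NIR1*, the nitrite reductase of the next step, had 8.84 and 8.09 in CRR OE against 8.64 and 8.55 in Col-0, and *NIA2*, the second nitrate reductase, differed by -0.19 against 0.66 in Col-0. *NRT1.1*, a nitrate transporter and sensor, had 8.98 and 8.10. Among the 564 genes with a mean level of 8 log2 CPM or more, *NIA2* among them, 95% differed between the lines in +Pi by under 0.20. The NIGT1 repressors, which link nitrate and Pi signals, were higher in 2 of 4 cases, *HHO2* by 1.17 and *HHO3* by 1.04, with *HHO1* at 0.79 and *HRS1* at -0.24. *HHO1* carried 3 P1BS matches within 300 bases of its start.

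Some genes of the sulfate and zinc lists were higher. Of 14 sulfate genes 6 were higher and 0 lower, against 3.18% and 0.853% of all genes, with a median of 0.81. *SULTR1;3*, a sulfate transporter of the phloem, had 1.02 log2 CPM in CRR OE +Pi and 4.75 in –Pi. *SULTR1;1*, which takes up sulfate when it is scarce, had 1.43 and 3.75, whereas *SULTR1;2*, the main transporter in normal supply, had 8.36 and 7.86. *SULTR3;4*, which moves Pi rather than sulfate in Arabidopsis leaves, was higher by 1.38. *LSU1* and *LSU2*, markers of low sulfur, were higher by 1.58 and 1.60, and *APR1*, a sulfate reductase, was just under the threshold at 0.95. Of 8 zinc genes 2 were higher, *ZIP9* by 1.90 and *HMA2* by 1.15, and 0 lower. Of the 8, 4 had a positive and 4 a negative difference, with *ZIP2* at -0.51. The 6 flavonoid genes in the table were uncalled, between -0.24 and 0.14.

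Among the 12 genes with the greatest decrease at 1 CPM or more, 2 act in xylem loading. *SKOR*, the potassium channel that releases potassium to the xylem, had 5.15 log2 CPM in CRR OE +Pi and 2.67 in –Pi, and *SLAH1*, an anion channel subunit of the same step, had 4.42 and 2.00. A neighbouring gene overlaps *SKOR*. Both were lower in Col-0 too, by 2.83 and 2.66 on the log2 scale. *TPPH*, a trehalose-phosphate phosphatase, had 4.14 and 1.31. Of 6 genes of its family, grouped after their values were seen, 3 were lower, against 0.853% of all genes. *TPPF* was at -1.26 and *TPPB* at -1.21, and 5 of the 6 had a negative difference. *GSTF14*, a glutathione S-transferase, had 5.12 and 2.58 in CRR OE against 5.03 and 3.61 in Col-0. *AGT1*, a photorespiratory aminotransferase, differed by -2.18, and AT3G49780, a precursor of the growth peptide phytosulfokine, had 4.84 and 2.94. *CYP82C4*, *FRO5* and *NIA1*, described above, are also among the 12. The other 3 were AT2G22122 (4.25 and 1.22), AT5G10210 (3.61 and 1.54) and AT1G78460 (2.44 and 0.57). AT4G39675 had the lowest difference of the table, -4.29, from 2.69 to -1.60, and AT2G28270, a cysteine and histidine rich C1 domain protein, had 2.48 and -0.22. None of these 14 genes had a P1BS match within 1000 bases, against 12 of the 18 genes with the greatest increases. The share was 20.5% over all nuclear genes and 17.8% over all 169 lower genes, so the lower genes as a set lay near the background.

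The remaining genes with the greatest increases include several without a known role. AT5G20790 had 1.43 log2 CPM in CRR OE +Pi and 7.37 in –Pi, *PLL3*, a protein phosphatase 2C, 0.29 and 4.66, and AT1G61080, a hydroxyproline-rich glycoprotein, 0.17 and 4.10. Among genes below 1 CPM in +Pi, AT2G45135, a RING domain protein beside *SPX3*, had -4.40 and 5.37. AT3G25240 had -3.87 and 5.41 and carried 3 P1BS matches within 300 bases. *HOL2* had -4.40 and 4.37. In CRR OE +Pi 15 genes had the table's minimum and so could not be lower in –Pi. One of them, AT5G53048, a non-coding RNA that overlaps AT5G53050, had 6.31 in –Pi. Without strand information its reads cannot be told apart from those of the overlapping gene.

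Most genes higher in CRR OE –Pi were also higher in Col-0 –Pi. The 2 comparisons share no library. In Col-0 785 genes (3.96%) were higher and 397 (2%) lower, so the number lower was the more unequal between the lines. Of the 630 genes higher in CRR OE 619 had a positive difference in Col-0 too, and 530 (84.1%) were past the threshold there, with medians of 1.68 in CRR OE and 1.85 in Col-0. Of the 169 lower genes 153 had a negative difference in Col-0 and 107 (63.3%) were past the threshold, with medians of -1.26 in both lines. Taken from the Col-0 side, the 530 shared genes are 67.5% of its higher genes and the 107 shared genes 27.0% of its lower genes. Across the 19802 genes, which are not independent replicates, Pearson's r between the differences was 0.85. Of the 71 genes with 2 or more P1BS matches, 22.5% were higher in Col-0 and 16.9% in CRR OE.

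**Figure D5:**
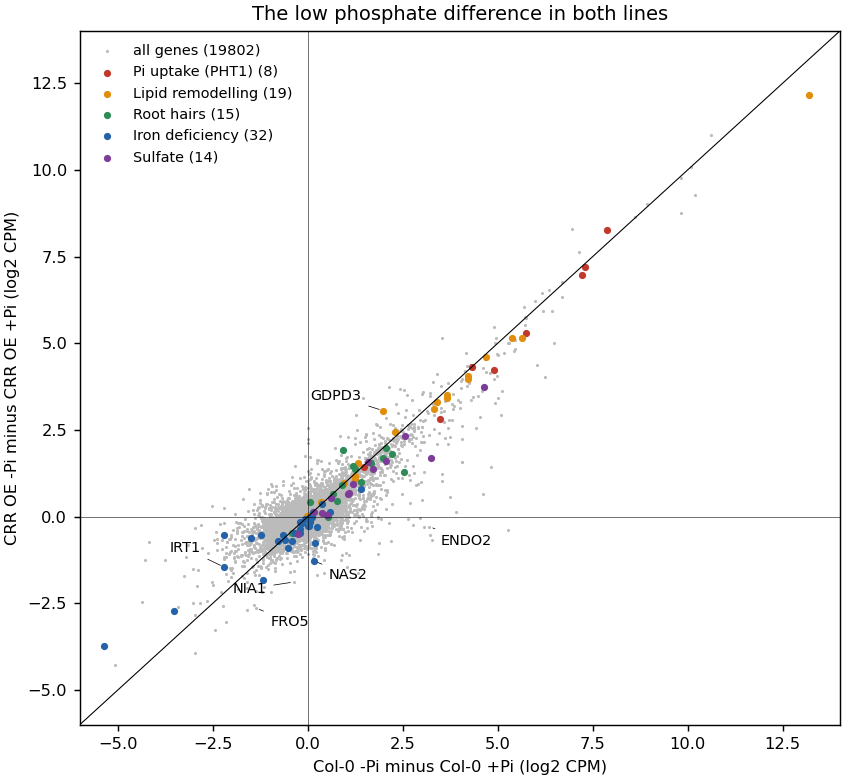
Difference between –Pi and +Pi in Col-0 (horizontal axis) and in CRR OE (vertical axis), log2 CPM, for 19802 genes (grey) and 5 gene lists (colours), with the diagonal marking equal differences. The *PHT1* and lipid genes lie along the diagonal, *NAS2*, *NIA1* and *FRO5* lie below it, and *ENDO2* is near 0 in CRR OE but at 3.20 in Col-0.

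A small number of genes went in opposite directions past the threshold in the lines. All 5 were lower in CRR OE –Pi and higher in Col-0 –Pi. AT1G52700 had 1.82 and 0.18 log2 CPM in CRR OE and 1.40 and 2.71 in Col-0. *NIT4*, a nitrilase, had 1.40 and 0.30 against 1.08 and 2.16, and AT5G40000 0.28 and -1.19 against -0.40 and 0.64. AT2G33020, a receptor-like protein, and AT5G39190, a germin-like protein, were below 1 log2 CPM in all 4 groups. All of them are low, and the difference between the lines was not tested.

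Of genes at 1 CPM or more in all groups that were higher in CRR OE –Pi, *UBC17*, a ubiquitin-conjugating enzyme, lay furthest above Col-0. It had 3.01 log2 CPM in CRR OE +Pi and 4.47 in –Pi, and 3.46 and 3.13 in Col-0. *GAT1_2.1* (AT1G15040), a glutamine amidotransferase-like protein, was higher by 2.93 in CRR OE against 1.27 in Col-0. *UMAMIT10*, of an amino acid exporter family, had 1.37 and 3.67 against 1.42 and 2.49, and *PIN5*, an auxin carrier of the endoplasmic reticulum, had 2.56 and 3.59 against 2.48 and 2.46. On the lower side, *GSTF2*, a glutathione S-transferase, had 7.18 and 5.98 in CRR OE against 6.89 and 7.02 in Col-0. *SAG21*, a stress-induced late embryogenesis protein, had 7.31 and 5.75 against 6.94 and 6.57. These genes were picked by the size of that gap and carry no test.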

How the data were processed

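RNA from seedling roots of both lines was sequenced with and without Pi, in 4 groups of 3 libraries. Per the labels and the study's methods, the authors used cutadapt 1.8 for trimming, filtered out ribosomal and then low-complexity sequence, mapped to TAIR10 with STAR 2.5.3a, counted them per gene with HTSeq 0.9.1, kept genes of at least 1 CPM in at least 1 library, and scaled by TMM in edgeR 3.24.3. RSEM 1.2.31 and limma are also named in the submitters' processing notes. Whether counting used strand is not given in the sources used here. The authors deposited log2 CPM values as 1 mean per group. Such means carry no spread and no depth per library, so the precision of a value is unknown, and a small constant in the logarithm shrinks differences of low genes. The 5 deposited tables of the authors' own comparisons hold fold changes, p-values or F statistics and were not used.

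Differences of group means were computed with Python 3.11 and pandas, and no test was run. Gene lists and families were described by counts past a difference of 1 and by medians. The members and lists were chosen with earlier results of these data known. Named genes were CRR, the 12 greatest rises and 12 greatest falls among genes at 0 log2 CPM or more in both CRR OE groups, the 6 greatest rises and falls (only 2 falls exist) among genes below 0 but above the table's lowest value in 1 group and at 2 or more in the other, the listed genes past 1 with the regulators, and, picked after values were seen, families and genes far from Col-0. Names came from the table or RefSeq. Sequences came from TAIR10.1, where 19781 of 19802 genes had the table's start and end. The scripts were tested on simulated data. Alternatives were added constants, a level filter, centring and other thresholds. Single values of some listed lipid genes are not reported here.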

Additional observations from a re-analysis of the deposited data

How the results depend on the processing

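No paired analysis was possible because the table holds 1 mean per group, so neither a replicate block nor leaving out a library was run. Centring on all genes or on the reference genes moved the median difference by under 0.02 and every count of calls by less than 1.5 times; by their construction none of the alternatives could turn the sign of a called gene. Adding constants lowered the counts. In CRR OE the 630 higher genes became 243 with 5 CPM added to each group mean, 403 among genes of at least 1 CPM in both groups, 370 at a threshold of 1.5 and 1333 at 0.5. The 169 lower genes became 72 with 1 CPM added, 37 with 5 CPM, 93 under the level filter, 52 at a threshold of 1.5 and 839 at 0.5. In Col-0 the 785 higher genes became 306 with 5 CPM and 500 under the filter, and the 397 lower genes 180 with 1 CPM, 76 with 5 CPM and 257 under the filter. The 10 listed genes lower in CRR OE became 6 with 5 CPM added, while 47 of the 66 listed higher genes were still past the threshold there. With 1 CPM added the lipid median was 2.38. Depth per library is not known from the table, so low genes cannot be weighed.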

Other observations

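Genes higher in CRR OE –Pi often lay next to one another on the chromosome. Of the 627 nuclear genes higher by at least 1, 114 (18.2%) had a neighbour in the table that was also higher, while 6.16% of all 19785 nuclear genes lay beside such a gene. Of the 169 lower genes 10 (5.92%) had a lower neighbour, against 1.70% of all genes. Tandem copies that share reads are counted among these pairs, and their part was not tested.

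Transport genes not covered by the lists also differed in CRR OE, where 3.18% of all genes were higher and 0.853% lower. Of 35 WAT1-related transporters, a family that includes amino acid exporters, 5 were higher and 4 lower in –Pi. *UMAMIT38* had 3.93 log2 CPM in +Pi and 6.37 in –Pi and *UMAMIT14* 5.39 and 7.10, whereas *UMAMIT29* had 5.54 and 4.24. *UMAMIT17* had 5.14 and 3.88 in CRR OE against 5.23 and 1.48 in Col-0. Of 15 aquaporins *PIP2-3* was lower, with 6.66 and 5.25, and *TIP1-3* was higher at low levels. Of 15 chlorophyll-binding proteins 12 had a negative difference in CRR OE, as had 10667 of all 19802 genes, and 2 were lower, with a median of -0.32. In Col-0 3 were lower, with a median of -0.46. None of 246 ribosomal protein genes and 37 histone genes was called, with medians of -0.02 and 0.06. These families were grouped after their values were seen.

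Of 10 measured mitochondrial features, 8 had a positive difference in CRR OE and 3 were higher by at least 1, *NAD5C*, *RPL16* and *COX1*, all below 0 log2 CPM in both CRR OE groups. Over all genes 9135 of 19802 had a positive difference, and of the 800 genes below 0 log2 CPM in mean level 18.8% were higher. In Col-0 0 were called and the median was -0.08, against 0.60 in CRR OE. Of 225 long non-coding RNAs 7 were higher and 1 lower in CRR OE, close to the 3.18% and 0.853% of all genes. AT3G57157 had 3.44 and 5.79, and AT2G08820 had -3.86 and 4.43.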
